A study of Arabidopsis thaliana with 12 samples.

Results

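Nuclear genes that serve translation inside the plastid were followed in the psaf line of Arabidopsis thaliana and in wild type (WT). They are 4 genes for proteins of the plastid ribosome and the gene of the translation activator ATAB2. They were chosen by name, as every probe annotated to exactly 1 gene among PRPL17 (AT3G54210), PRPL5 (AT4G01310), PRPS6 (AT1G64510), PRPS10 (AT3G13120) and ATAB2 (AT3G08010). Each was on 1 probe, so the 5 genes take 5 of the 692 probes with a single named gene and of the 3439 probes in the table, and all 5 had a value above 0 on all 12 arrays.

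The psaf line is an antisense line in the Columbia 0 ecotype without PSI-F, a protein of photosystem I. WT plants are of the same ecotype. Total RNA of each genotype was read on 6 one-channel arrays, numbered 1 to 6. The sources used here do not give the promoter of the construct, the number of independent lines, the tissue or the age of the plants.

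The plastid ribosome is of the bacterial type, with a large 50S and a small 30S subunit. Most of its proteins are encoded in the nucleus and imported, and the rest, like the reaction centre proteins of both photosystems, are encoded and translated in the plastid. PRPL17 and PRPL5 are proteins of the 50S subunit, and L5 is known from bacteria to bind the 5S rRNA. PRPS6 and PRPS10 are proteins of the 30S subunit. ATAB2 is no ribosomal protein: it is an RNA-binding protein, related to Tab2 of the green alga Chlamydomonas, which is needed for the translation of photosystem proteins.

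The deposited values are linear intensities, and their 12 array totals lay between 3563 and 3745. Arrays 1 and 2, 3 and 4, and 5 and 6 of a genotype lay close to each other. On the log2 scale their differences had a robust SD of 0.118 to 0.156 within such a pair, against 0.218 to 0.286 across pairs in psaf and 0.254 to 0.431 across pairs in WT. A pair was counted as 1 sample, which leaves 3 samples per genotype and sets the precision. Nothing in the labels ties the samples to separate plants, so p-values measure only their spread, which may be technical. The median probe intensity was 0.416 to 0.459 on psaf arrays and 0.536 to 0.569 on WT arrays, and the median log2 difference of psaf over WT over the 3266 tested probes was -0.29. The members' differences on the deposited scale are read beside that value. As in any RNA pool, fewer cells that carry a transcript and less transcript per cell cannot be told apart.

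ATAB2 was lower in psaf by about 2-fold and was the single member to pass the test on the deposited scale. The intensity of ATAB2 was 0.0824, 0.0999, 0.0783, 0.0649, 0.0868 and 0.0931 on psaf arrays 1 to 6, and 0.157, 0.144, 0.191, 0.186, 0.169 and 0.187 on WT arrays 1 to 6. All 6 psaf arrays lay below all 6 WT arrays. The pair means averaged 0.0840 ± 0.0110 in psaf and 0.172 ± 0.0198 in WT (SD, n = 3 each). The log2 difference was -1.04 ± 0.15 (SE), or 2.05-fold lower, with a 95% interval of -1.40 to -0.68 (limma adjusted p = 0.00422).

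The difference of ATAB2 was more negative than that of most probes. Of all tested probes 5.48% had a more negative difference, and of the probes in its own brightness class 13.8%. ATAB2 was in the dimmest of 10 brightness classes of the probes, where the median difference was -0.34 and 28.4% of probes passed as lower in psaf. It was 0.69 below the median of that class and 0.74 below the median of all probes. The probe is dim: all 6 psaf readings and none of the WT readings of ATAB2 lay under 0.106, the 5th percentile of all values above 0. With 0.106 added before log2, the difference of ATAB2 was -0.55 and still passed (limma adjusted p = 0.0056), against a median of -0.23 for all probes, of which 18.8% were then more negative.

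PRPL17 was the ribosomal protein gene with the most negative difference. It read 1.02, 1.10, 0.823, 0.881, 1.04 and 1.10 on psaf arrays 1 to 6, and 1.62, 1.74, 1.23, 1.26, 1.21 and 1.25 on WT arrays 1 to 6. Every psaf array was below every WT array, and WT arrays 1 and 2 stood above the other 4 WT arrays. The log2 difference was -0.47 ± 0.17 (SE) with a 95% interval of -0.88 to -0.07, which did not pass over all probes (limma adjusted p = 0.0669). Without WT arrays 1 and 2 it was -0.33 (limma adjusted p = 0.124), against a median of -0.32 for all probes in that fit.

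PRPL5 showed the opposite spread among WT arrays. It read 0.707, 0.617, 0.575, 0.643, 0.672 and 0.696 on psaf arrays 1 to 6, and 0.596, 0.676, 0.897, 0.841, 1.05 and 0.999 on WT arrays 1 to 6. The psaf arrays lay close together, while WT arrays 1 and 2 were as low as psaf and the other 4 WT arrays were above all psaf arrays. The pair means of PRPL5 averaged 0.651 ± 0.0389 in psaf and 0.842 ± 0.196 in WT (SD, n = 3 each). Its log2 difference was -0.35 with a 95% interval of -0.79 to 0.10 (limma adjusted p = 0.184), so a fall larger than that of the median probe, no difference, and anything between lie within it. Without WT arrays 1 and 2 the difference was -0.54 and passed (limma adjusted p = 0.0241), and without WT arrays 5 and 6 it was -0.19 (limma adjusted p = 0.42).

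Neither gene of the small subunit passed the test, and for both the genotypes overlapped. PRPS6 read 0.115, 0.138, 0.127, 0.157, 0.0921 and 0.116 on psaf arrays 1 to 6, and 0.136, 0.153, 0.166, 0.180, 0.133 and 0.171 on WT arrays 1 to 6. Of the 6 psaf arrays, 4 lay under the lowest WT array. PRPS6 is in the same dimmest class as ATAB2, and its log2 difference of -0.34 (95% interval -0.71 to 0.02, limma adjusted p = 0.115) equalled the median of that class.

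PRPS10 read 0.307, 0.305, 0.386, 0.359, 0.308 and 0.302 on psaf arrays 1 to 6, and 0.349, 0.345, 0.420, 0.409, 0.355 and 0.364 on WT arrays 1 to 6. In both genotypes arrays 3 and 4 were the highest, and those 2 psaf arrays reached into the WT range. Its log2 difference was -0.19 with a 95% interval of -0.51 to 0.13 (limma adjusted p = 0.295), less negative than that of 58.9% of all tested probes.

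**Figure D1:**
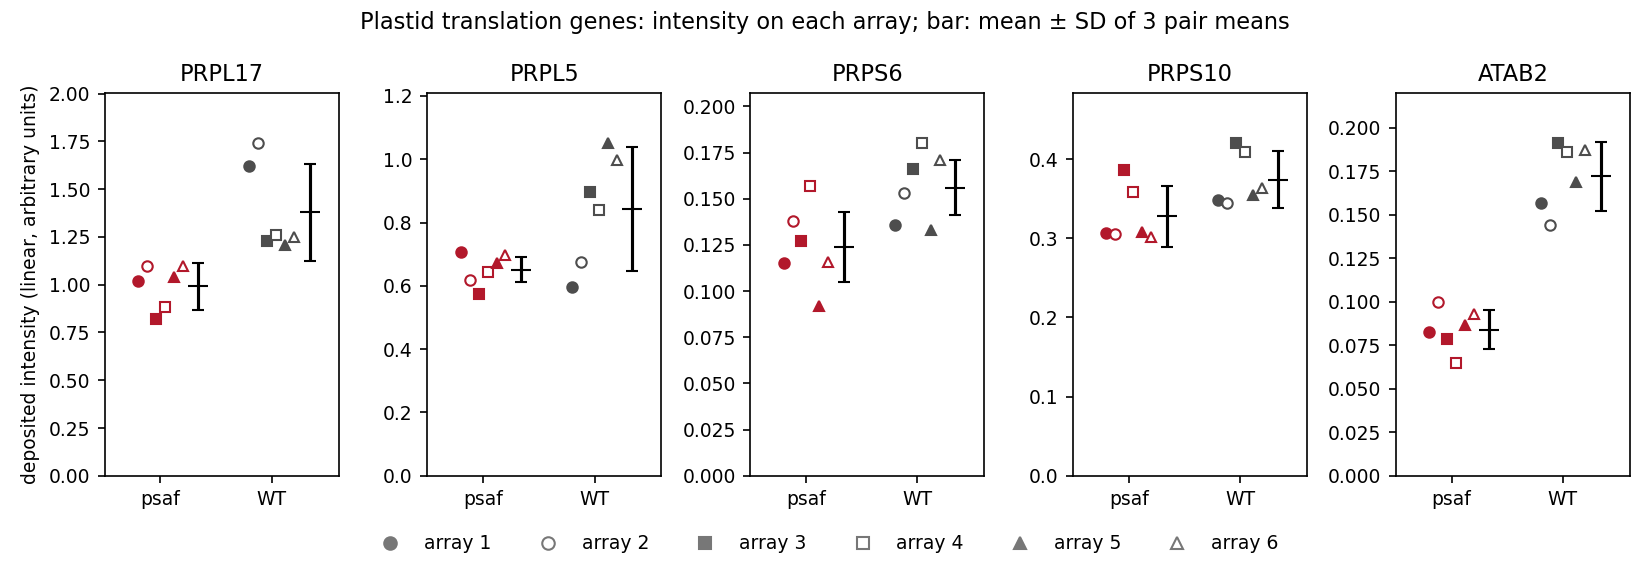
Deposited intensity (linear, arbitrary units, axis from 0) of each gene on each psaf and WT array; marker shape gives the close pair, filled and open markers its 2 arrays, and bars the mean ± SD of 3 pair means. The groups are apart for ATAB2 and PRPL17 and overlap for PRPL5, PRPS6 and PRPS10.

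Over all 5 genes, 1 passed as lower in psaf with pairs averaged and none as higher, where 34.1% of all 3266 tested probes and 38.4% of the 649 tested probes with 1 named gene passed as lower. Readings on psaf arrays were all below those on WT arrays for 2 of the 5, against 35.0% of all tested probes. The median difference was -0.35 for the 5 genes, -0.34 for the 4 ribosomal protein genes, -0.34 for the 649 probes with 1 gene and -0.29 for all probes. On this scale all 5 differences were below 0, as were 72.0% of all probes. Counted this way the 4 ribosomal protein genes sat near the middle of the array, and ATAB2 sat towards its lower end. With all 12 arrays taken as separate samples 4 of the 5 passed as lower (ATAB2, PRPL17, PRPL5 and PRPS6), and in that fit 50.2% of all probes did.

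**Figure D2:**
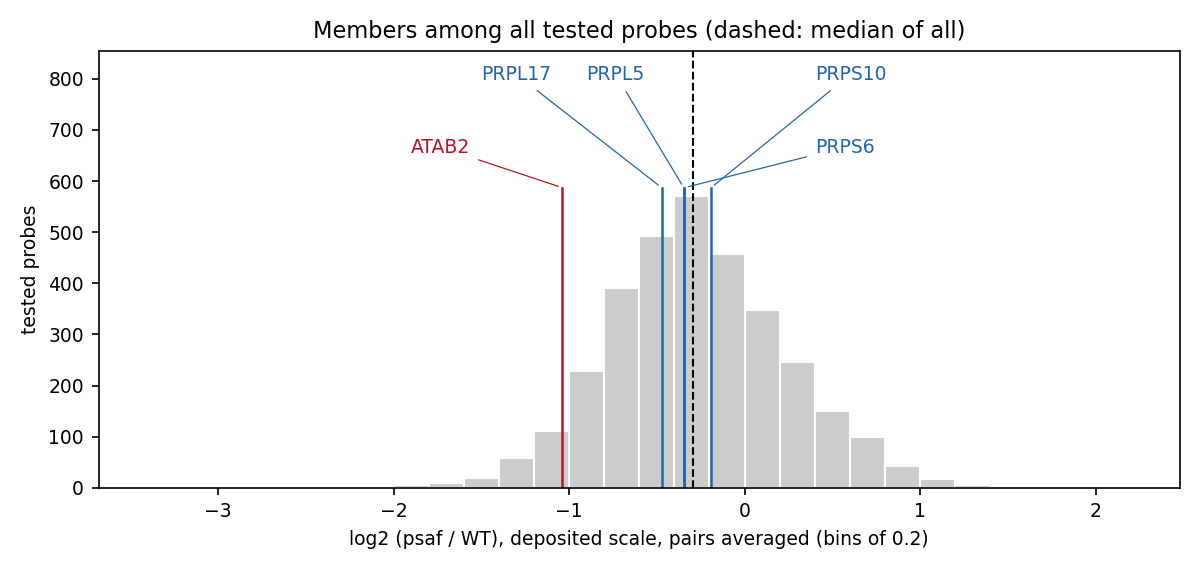
Number of tested probes (y) by log2 difference of psaf over WT with pairs averaged (x, bins of 0.2), with the 5 genes as vertical lines and the median probe dashed. The 4 ribosomal protein genes lie between -0.47 and -0.19, around the median of -0.29, and ATAB2 lies at -1.04.

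The fall of ATAB2 passed under every scaling of the arrays, and the direction of 3 ribosomal protein genes did not hold. ATAB2 was at -0.75 after quantile normalisation (limma adjusted p = 0.0114), at -0.69 after median centring (limma adjusted p = 0.0193) and at -0.65 after cyclic loess (limma adjusted p = 0.0208). It was the 1 member called in each of these fits, where 12.9%, 10.1% and 12.4% of all probes passed as lower. None of the 4 ribosomal protein genes passed in limma with pairs averaged under these scalings or on the deposited scale. At an unadjusted p under 0.05 there were 0 of 4 under each of these scalings and 1 of 4, PRPL17, on the deposited scale.

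PRPL17 kept a negative sign under these scalings (-0.24, -0.12 and -0.24). PRPL5 was at -0.04, 0.01 and -0.002, and PRPS6 at -0.07, 0.01 and 0.06, which is no more than a few hundredths from 0 against SEs of 0.13 to 0.19. PRPS10 turned positive, at 0.16, 0.16 and 0.22, and under cyclic loess its 95% interval was -0.09 to 0.54. On the deposited scale, where the median probe is lower too, the estimates of PRPL5, PRPS6 and PRPS10 were negative, with 95% intervals that included 0. Relative to the array they were near 0 or positive. The median of all tested probes was -0.01 after quantile normalisation, 0.06 after median centring and 0.03 after cyclic loess. Measured from the median probe, PRPL5 and PRPS6 were at -0.05 and PRPS10 at 0.10, on the deposited scale and after median centring alike.

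**Figure D3:**
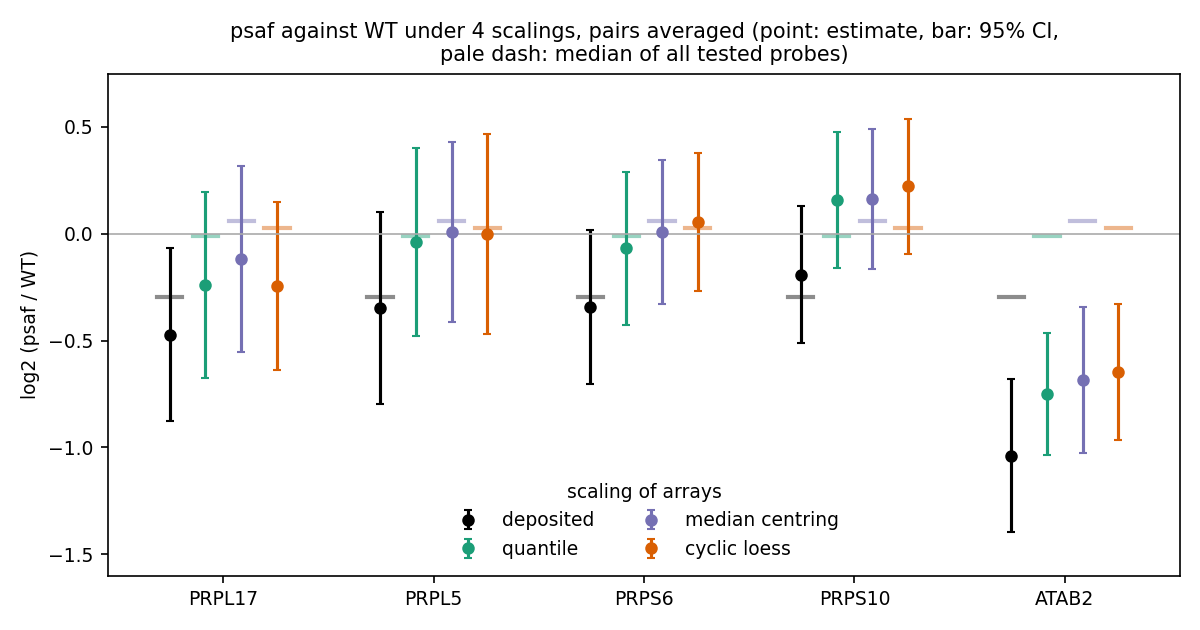
Log2 difference of psaf over WT with 95% confidence intervals for each gene under 4 scalings, pairs averaged; pale dashes mark the median of all tested probes under each scaling. ATAB2 lies at -1.04 to -0.65 with intervals below 0 throughout, and the intervals of the 4 ribosomal protein genes include 0 under quantile normalisation, median centring and cyclic loess.

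Whether ATAB2 changed more than the ribosomal protein genes was tested on the log2 difference between 2 probes of the same array, from which a shift common to the array cancels. Here the change between genotypes is informative and the level itself is not, since probes differ in brightness. Relative to PRPL17, ATAB2 changed by -0.57 ± 0.24 (SE, 95% interval -1.24 to 0.11). Relative to PRPL5 it changed by -0.69 ± 0.15 (-1.11 to -0.28), relative to PRPS6 by -0.69 ± 0.24 (-1.35 to -0.04), and relative to PRPS10 by -0.85 ± 0.22 (-1.45 to -0.25).

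In all 4 comparisons the 3 psaf pair means lay below the 3 WT pair means. Each gave a two-sided exact permutation p of 0.1, the smallest that 3 against 3 allows, and an adjusted p of 0.1 over the 4. The threshold of 0.05 could therefore not be reached. The 4 comparisons share the ATAB2 probe and are not independent. ATAB2 by itself was lower on every psaf array than on every WT array, as were 35.0% of all tested probes. Only 5.48% of all tested probes had a more negative difference than ATAB2, and its separation from probes other than these was not counted. The separation can therefore not be read as particular to ribosomal protein genes. For PRPL17 the gap was narrow: WT arrays 1 and 2, where PRPL17 was high and ATAB2 low, gave a difference of -3.48, close to the -3.58 to -3.55 of psaf, while the other WT pairs gave -2.72 and -2.79. Without WT arrays 1 and 2 the change relative to PRPL17 was -0.81. With 0.106 added before log2 the 4 changes were -0.12, -0.24, -0.36 and -0.40, in the order PRPL17, PRPL5, PRPS6 and PRPS10, with exact permutation adjusted p = 0.6, 0.267, 0.2 and 0.2. The offset weighs most on the dim ATAB2 probe.

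**Figure D4:**
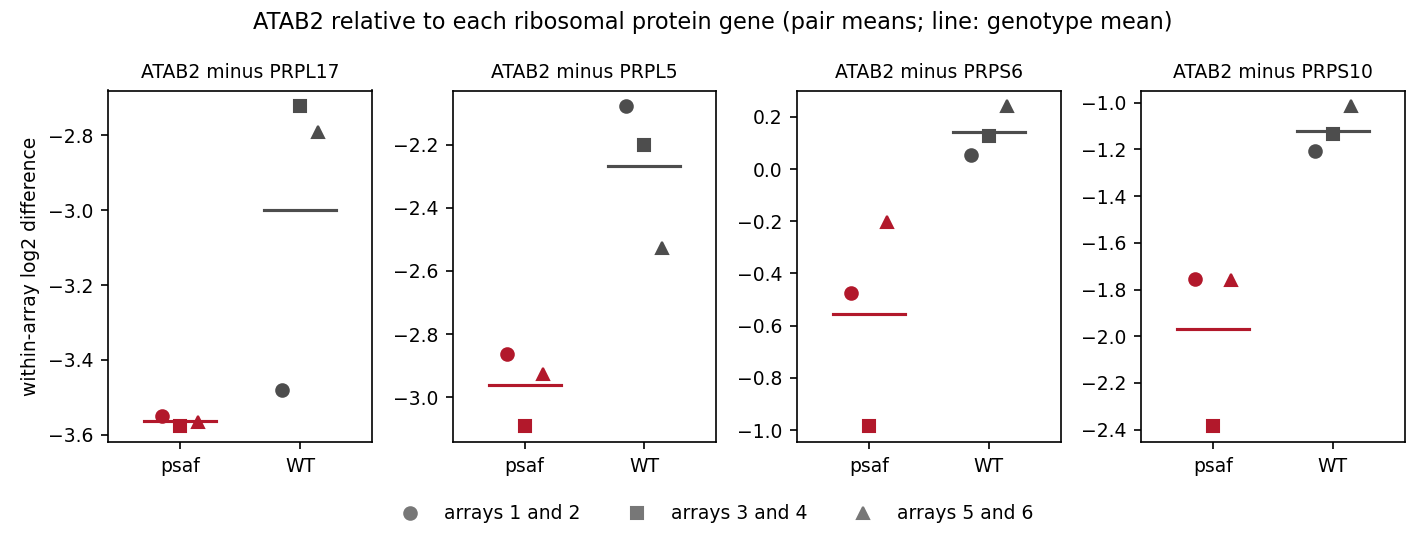
Within-array log2 difference between ATAB2 and each ribosomal protein gene for the 3 pair means of psaf and of WT, with genotype means as lines; marker shape gives the pair. All psaf points lie below all WT points in each panel, and WT arrays 1 and 2 come within 0.1 of psaf for PRPL17. The panels share the ATAB2 values and are not independent. The share of all tested probes separated from ATAB2 in this way was not counted.

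Among the 4 ribosomal protein genes, PRPS6 relative to PRPS10 was the single pair whose psaf pair means all lay below the WT pair means, with a change of -0.15 ± 0.08 (SE). The 6 pairwise changes lay between -0.28 (PRPL17 relative to PRPS10) and -0.003 (PRPL5 relative to PRPS6). The exact permutation p was 0.1 for PRPS6 relative to PRPS10, the smallest that 3 against 3 allows, and 0.6 to 1 for the others, with adjusted p = 0.6 to 1 over the 6. The intervals are wide, from -1.10 to 0.85 for PRPL17 relative to PRPL5, and do not show that the genes acted alike.

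The 5 genes did not vary together from array to array. After centring each array on its median, Pearson's r over the 12 arrays, which include close pairs and both genotypes, was -0.56 for PRPL17 and PRPS10, -0.51 for PRPL17 and PRPL5 and 0.43 for PRPS6 and PRPS10. The pair of PRPS6 and PRPS10 had the highest r of the 10. As deviations from the genotype means, PRPS6 and PRPS10 gave 0.49, and PRPL17 and PRPL5 gave -0.52. With PRPL17, PRPL5, PRPS6 and PRPS10, ATAB2 gave 0.26, 0.14, -0.12 and -0.54. As deviations from the genotype means these were 0.03, 0.35, -0.22 and -0.19.

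Probes with neighbouring numbers in the table shared part of the spread of PRPL17 and PRPL5. On WT arrays 1 and 2 PRPL17 deviated by 0.42 log2 from its WT median, and the median deviation of its 4 nearest probes was 0.33. On the same arrays PRPL5 deviated by -0.45 and its nearest probes by -0.43. Elsewhere the match could be poor: on psaf arrays 1 and 2 PRPL17 deviated by 0.04 and its neighbours by 0.25. On psaf arrays 3 and 4 PRPS6 and PRPS10 deviated by 0.22 and 0.28, and their neighbours the other way, by -0.15 and -0.07. With the neighbours' deviation subtracted from each array, the difference was -0.45 for PRPL17 (limma adjusted p = 0.00563) and -0.44 for PRPL5 (limma adjusted p = 0.00359). Both then passed as lower together with ATAB2, in a fit where 49.7% of all probes did. The subtracted deviations are taken from each genotype's own median. By construction they can narrow the spread within a genotype (SE 0.17 before and 0.09 after for PRPL17, 0.19 and 0.08 for PRPL5). They cannot remove a genotype difference shared with the neighbours, but they can move the estimate. It went from -0.35 to -0.44 for PRPL5 and from -0.47 to -0.45 for PRPL17. After cyclic loess and the same subtraction, PRPL17 was at -0.20 (limma adjusted p = 0.12), PRPL5 at -0.06 (limma adjusted p = 0.581) and ATAB2 at -0.65 (limma adjusted p = 0.00681). After median centring and the subtraction PRPL17 was at -0.04 (limma adjusted p = 0.742) and PRPL5 at -0.06 (limma adjusted p = 0.588). What the neighbours share was not tested.

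For ATAB2 the neighbours also deviated in WT, by -0.18 on arrays 1 and 2 and by 0.275 on arrays 3 and 4, and by -0.02 to 0.05 on the psaf pairs. With them subtracted ATAB2 was at -1.03 (limma adjusted p = 5.88e-04), against -1.04 without the subtraction. A genotype difference shared with the neighbours would again remain.

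**Figure D5:**
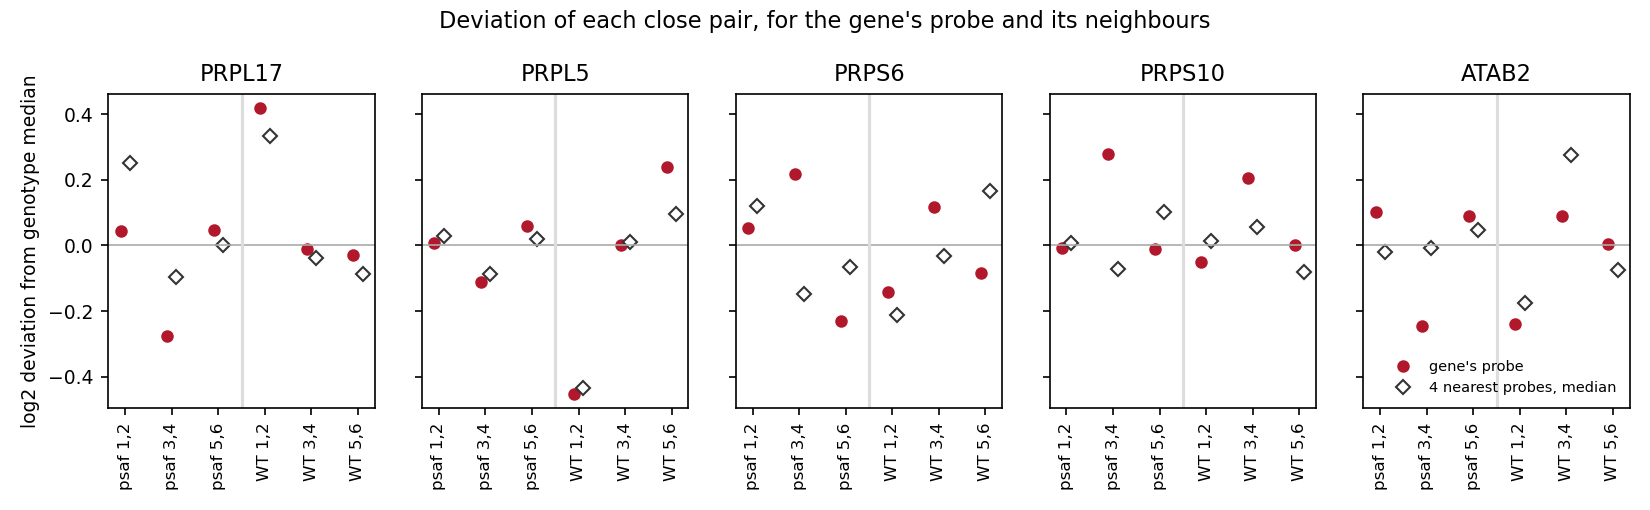
Log2 deviation from the genotype median for each close pair, for the gene's own probe (red) and for the median of its 4 nearest probes by number (open diamonds), psaf pairs left of WT pairs. On WT arrays 1 and 2 probe and neighbours move together for PRPL17 (0.42 and 0.33) and PRPL5 (-0.45 and -0.43). On psaf arrays 3 and 4 they move apart for PRPS6 and PRPS10.

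The rest of the plastid translation apparatus was barely covered by probes with a single named gene. Lists of 27 proteins of the 50S subunit, 14 of the 30S subunit, 13 plastid translation factors and 10 translation activators and RNA-binding helpers held 64 genes, of which 7 were on such a probe, 5 of them the genes above. The 2 others were proteins of the 50S subunit, PRPL34 (AT1G29070) and PRPL29 (AT5G65220). PRPL29 was listed at 0 on all 12 arrays and was not tested. No probe with several genes listed one of the 5 genes, and 3 such probes listed other genes of these lists and were not analysed here.

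PRPL34, the one tested gene of these lists beyond the 5, was lower on the deposited scale. It read 0.190, 0.0932, 0.159, 0.138, 0.192 and 0.116 on psaf arrays 1 to 6, and 0.254, 0.209, 0.437, 0.326, 0.297 and 0.127 on WT arrays 1 to 6. The groups overlapped, and the 2 arrays of a pair differed by up to 1.23 log2. The log2 difference of PRPL34 was -0.84 ± 0.25 (SE, limma adjusted p = 0.0364), nearer to ATAB2 (-1.04) than to the 4 ribosomal protein genes above. Of all tested probes 11.5% had a more negative difference. It was in brightness class 2 of 10, counted from the dimmest, where the median was -0.38. With 0.106 added before log2, PRPL34 and ATAB2 were both at -0.55. The contrast of ATAB2 with the 4 genes is thus not shown for PRPL34. Under quantile normalisation, median centring and cyclic loess PRPL34 was at -0.52, -0.49 and -0.43 and did not pass (limma adjusted p = 0.168 to 0.218). Without WT arrays 3 and 4, its highest, it was -0.56 and passed (limma adjusted p = 0.0241), and without any 1 of the 3 psaf pairs it did not pass (limma adjusted p = 0.0893 to 0.106).

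The named genes most like each of the 5, by Pearson's r of median-centred log2 values over the 12 arrays, were found among the 649 tested probes with 1 gene. For ATAB2 they were AT3G44610 (r = 0.96) and AT1G15410 (r = 0.946). Both also fell in psaf, with log2 differences of -0.96 (limma adjusted p = 0.0032) and -0.71 (limma adjusted p = 0.0047), and as deviations from the genotype means r was 0.779 and 0.677. For both, r was thus higher with the difference between genotypes than without it. Genes picked by an r that includes this difference will tend to be lower in psaf, as ATAB2 is. Their falls and p-values therefore follow in part from the choice and are no separate finding.

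For the ribosomal protein genes r was about as high within genotypes. PRPL17 was most like AT2G28200 (r = 0.958, and 0.979 within genotypes) and LAS (Lateral Suppressor, AT1G55580; r = 0.913 and 0.928). PRPL5 was most like AT2G19870 (r = 0.904) and AT4G31210 (r = 0.862). PRPS10 was most like AT1G51350 (r = 0.927) and AT2G23390 (r = 0.911), and PRPS6 most like AT5G05330 (r = 0.792, and 0.766 within genotypes) and AT5G42070 (r = 0.771 and 0.781). Of these 8 genes, 2 passed as lower in psaf, where 38.4% of the 649 tested probes with 1 gene did. They were AT2G28200 at -0.57 (limma adjusted p = 0.0339) and AT5G05330 at -2.96 (limma adjusted p = 0.00613). The probe of AT5G05330 is dim, with mean log2 values equal to intensities of 0.0101 in psaf and 0.0786 in WT. No gene appeared for more than 1 of the 5, and these values describe 12 arrays that lie in close pairs.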

How the data were processed

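One-channel arrays were read for 6 psaf and 6 WT samples, grouped by the labels' titles. The deposited table holds 1 linear intensity per probe and array, with nearly equal array totals; the sources used here do not give the scanner, the background correction or the normalisation. Of the scale, whether 0 means missing or low is unknown, and direction and centring need no assumption for a linear value. Columns carry the samples' names. No genome build is named, so no coordinates are given.

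A value of 0 was taken as no measurement, and probes with at least 4 measured arrays and 2 pair means per genotype were tested (3266, with 173 set aside). Log2 intensities of close pairs, found as mutually nearest arrays, were averaged, since the correlation within a pair was 0.76, and entered limma 3.58.1 (R 4.3.3; lmFit and eBayes with genotype as the only term). Tests were two-sided, with Benjamini-Hochberg adjustment over all tested probes and a threshold of 0.05. Intervals are 95% intervals of that fit, or of the pair means with a normal spread for differences between 2 probes; the latter were tested by exact permutation. The fits were tested on simulated data.

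Alternatives were 12 arrays as samples, replicate or pair blocks, 3 other scalings, an offset of 0.106, filters, a trended robust variance, a correction for neighbouring probe numbers and leaving out each pair. Joining that correction with another scaling, and the offset over 12 arrays, were added after seeing the data, as were the 6 comparisons among ribosomal protein genes.

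The supplied platform annotation gave 1 gene for 692 probes, several for 870 and none for 1877; of the first, 690 were found in RefSeq's genes for TAIR10.1. Genes named were the 5 members, tested genes of the 4 plastid lists and the 2 named genes most like each member. Lists by words (other ribosomal proteins, aminoacyl-tRNA synthetases, translation factors) matched 0 further named genes, searched in symbols and synonyms alone because the gene table has no descriptions. Members, lists and the averaging of pairs were chosen with earlier results of these data known.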

Additional observations from a re-analysis of the deposited data

How the results depend on the processing

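The call for ATAB2 held in all 23 alternatives that could test it (-1.13 to -0.55, limma adjusted p at most 0.0218), those of the pairs left out included (-1.13 to -0.92); the filter on dim probes removed ATAB2 and PRPS6. Over all probes 1271 passed with pairs averaged, 157 higher and 1114 lower. With 12 arrays 1997 passed, 359 of them higher, and with the neighbour correction 1915, 292 of them higher. Quantile normalisation, median centring and cyclic loess with pairs averaged gave 707, 758 and 762 calls (287, 429 and 357 higher, 420, 329 and 405 lower). Over 12 arrays the same scalings gave 725, 926 and 823 higher, with 722 lower under median centring. At an adjusted p under 0.01, 579 passed (63 higher, 516 lower). Leaving out a pair gave 709 to 1265 calls, 83 to 169 higher and 621 to 1096 lower, with the lowest totals without psaf arrays 5 and 6 (709) or 3 and 4 (793).

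The shared array numbers were not taken as pairing, because not every correlation of same-numbered deviations was above 0.1: arrays 1 (0.042) and 2 (0.022) and the first pair mean (-0.016) were not, while the other 4 arrays and 2 pair means were, at up to 0.257. With the replicate block over 12 arrays 2148 passed (396 higher, 1752 lower), among them PRPL17 (-0.47), PRPL5 (-0.35), PRPS6 (-0.34) and PRPS10 (-0.19). With the replicate block over pair means PRPL5, PRPS6 and PRPS10 did not pass (limma adjusted p = 0.167, 0.0714 and 0.142) and PRPL17 did (0.0494), as it did with the pair as a random block (0.0152).

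PRPL17, PRPL5 and PRPS6 also passed over 12 arrays, without the offset at the values above and with it at -0.43, -0.30 and -0.19, and PRPL17 (-0.45) and PRPL5 (-0.44) after the neighbour correction. Without 1 pair PRPL17 ranged from -0.55 to -0.33, PRPL5 from -0.54 to -0.19, PRPS6 from -0.45 to -0.22, PRPS10 from -0.29 to -0.11 and PRPL34 from -1.04 to -0.56. PRPL5 passed without WT arrays 1 and 2. Signs turned, alike over pair means and 12 arrays, for PRPL5 under median centring (0.0065), for PRPS6 under median centring (0.0094) and cyclic loess (0.055), and for PRPS10 under quantile normalisation (0.16), median centring (0.16) and cyclic loess (0.22), the last with a limma adjusted p of 0.0464 over 12 arrays. With the neighbour correction after cyclic loess and after median centring PRPS6 was at 0.065 and 0.021, and PRPS10 at 0.18 and 0.11. PRPL34 did not pass under quantile normalisation (-0.52), median centring (-0.49), cyclic loess (-0.43), the last 2 with the neighbour correction (-0.41 and -0.39) or the pair as a random block (-0.84, limma adjusted p = 0.273).

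The change of ATAB2 relative to PRPL17, PRPL5, PRPS6 and PRPS10 kept its sign in every alternative run. Over 12 arrays, whose close pairs make p too small, it passed on the deposited scale (-0.57, -0.69, -0.69 and -0.85, exact permutation adjusted p = 0.00577 to 0.0152), after quantile normalisation (-0.51, -0.71, -0.68 and -0.91) and after cyclic loess (-0.40, -0.65, -0.70 and -0.87). Over pair means after cyclic loess the exact permutation adjusted p was 0.3 for PRPL17 and 0.133 for the others. Without 1 pair the changes ranged from -0.81 to -0.43, -0.82 to -0.60, -0.87 to -0.48 and -0.95 to -0.64. The cause of these differences was not tested. ATAB2 and PRPS6 are dim, and an offset shrinks their differences.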
